A study of Mus musculus with 18 samples.

Results

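The cytosolic ribosomal protein genes were taken from the gene count table as the protein-coding rows whose symbols begin with Rpl or Rps and a number, together with Rplp0 to Rplp2 and Rpsa, and without the ribosomal S6 kinases. The rule found 94 of the 54532 rows. By symbol, 46 are core proteins of the large subunit, 31 are core proteins of the small subunit, 7 are paralogs of a core protein, 8 carry a pseudogene name although they are typed as protein coding, and the other 2 are Rps27rt and Rps19bp1. Rps27rt has a coding sequence 100% identical to that of Rps27 over 252 bases, and Rps19bp1 encodes a protein that binds Rps19 and is not itself a ribosomal protein. The core genes Fau and Rack1 fall outside the rule because of their symbols and are described beside the members.

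Poly(A) RNA from the heart apex of wild-type mice was sequenced in 18 libraries, 3 for each of 6 groups, in the batches LC and LA. Batch LC holds hearts that received Lmna shRNA with lamin C, hearts that received Lmna shRNA and control hearts. Batch LA holds hearts that received Lmna shRNA with lamin A, hearts that received Lmna shRNA and control hearts. The design text asks what raising lamin A or lamin C does in hearts whose cardiomyopathy is produced by Lmna knockdown. Lmna encodes both lamins, and rAAV9 is a viral vector that reaches the heart. The promoter of the vectors, the age and sex of the mice and what the controls received are not given in the sources used here. The libraries carry separate numbers, but no label states that each is a separate animal, so the p-values measure the spread between these samples.

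A ribosome joins a small subunit, which reads the messenger RNA, to a large subunit, which forms the peptide bond. Nearly every protein of the 2 subunits is present in 1 copy per ribosome, and the messenger RNAs of most of them begin with a stretch of pyrimidines, the TOP motif, through which mTORC1 and Larp1 set how much of each message is translated. Messenger RNA levels do not measure that step. In heart and skeletal muscle the large-subunit protein Rpl3, which lies close to the peptidyl transferase centre, is partly replaced by its muscle paralog Rpl3l.

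Pyrimidine stretches lay within 50 bases of the annotated start of most core genes and of fewer paralogs. RefSeq promoter sequence (GRCm38.p6) was matched for 66 of the 94 members. In the 100 bases centred on the start, 42 of 57 core genes (73.7%) had a run of at least 10 bases made only of C and T on the coding strand, with 29 of 34 large-subunit genes (85.3%) and 13 of 23 small-subunit genes (56.5%). Of the paralogs 2 of 7 (28.6%) had one, and among all genes with RefSeq promoter sequence the number was 5562 of 27025 (20.6%). The lines below show 30 bases around the longest run, in capitals, for Rpl3l, Rps2 and 6 core genes with large rises described further on. A run that reaches the window's end was counted only up to it.
Rpl3l, chr17:24727846-24727875, plus strand: tggtggggaggCCCCTTCCTaacctgcagg
Rps2, chr17:24720083-24720112, plus strand: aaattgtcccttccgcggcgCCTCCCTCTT
Rps12, chr10:23787182-23787211, minus strand: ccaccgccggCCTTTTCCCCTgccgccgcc
Rpl10, chrX:74270836-74270865, plus strand: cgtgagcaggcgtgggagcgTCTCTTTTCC
Rpl41, chr10:128549119-128549148, minus strand: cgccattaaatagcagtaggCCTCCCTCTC
Rpl39, chrX:37085173-37085202, minus strand: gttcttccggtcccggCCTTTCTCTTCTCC
Rpl12, chr2:32961732-32961761, plus strand: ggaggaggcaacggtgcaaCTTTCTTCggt
Rps26, chr10:128626485-128626514, minus strand: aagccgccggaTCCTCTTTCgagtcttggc

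The longest run had 8 bases in Rpl12, 9 in Rpl3l and Rps26, 10 in Rps2, Rpl10 and Rpl41, 11 in Rps12 and 14 in Rpl39. These runs do not begin at the annotated start, as a TOP motif would: counting the first transcribed base as 1, their first bases lie at 4 (Rps26), 9 (Rps12), 32 (Rpl3l), 37 (Rpl39), 40 (Rpl12) and 41 (Rps2, Rpl10 and Rpl41). Among the core genes the median log2 fold change in shRNA-labelled against control hearts of batch LC was 0.295 for the 42 genes with a run of at least 10 bases and 0.291 for the 15 without. In batch LA these medians were 0.255 and 0.215.

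Each library held between 31418657 and 41259968 counts. Levels are given as CPM, a gene's count set against its library's size once that size is scaled by the trimmed mean of M values (TMM), and changes as log2 fold changes from edgeR's quasi-likelihood test with Benjamini-Hochberg adjustment over 17876 genes, called at an adjusted p under 0.05. In the bulk tissue the target of the shRNA was not lower where the labels say it was given. Whether it was lower within cardiomyocytes cannot be told from these values, since markers of cell types moved between the same groups, as described further on. Lmna stood at 137, 134 and 115 CPM in shRNA-labelled hearts of batch LC and at 122, 128 and 120 CPM in their controls (log2 fold change 0.06 ± 0.08, SE, edgeR adjusted p = 0.578). In batch LA it stood at 127, 122 and 130 CPM in shRNA-labelled hearts and at 120, 120 and 112 CPM in controls (0.11 ± 0.08, edgeR adjusted p = 0.258). It reached 1064 to 1375 CPM with lamin C and 501 to 556 CPM with lamin A, and the files do not separate an added lamin from the mouse's own transcript. The groups are therefore named by their labels throughout.

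The members together took a larger share of all counts in shRNA-labelled hearts. In batch LC the share was 1.24% ± 0.0255 with lamin C, 1.74% ± 0.167 in shRNA-labelled hearts and 1.10% ± 0.0336 in controls (SD, n = 3 each). In batch LA it was 1.46% ± 0.0331 with lamin A, 1.66% ± 0.0487 in shRNA-labelled hearts and 1.07% ± 0.034 in controls. Counts of mitochondrially encoded genes moved the other way, with 24.0% of counts with lamin C, 14.4% in shRNA-labelled hearts and 25.4% in controls of batch LC, and 21.3%, 14.4% and 26.7% in the matching groups of batch LA. Scaling by library totals in place of TMM moves the median of all genes by more than 0.1, to 0.47 and 0.484 in the shRNA comparisons against 0.0455 and 0.0462 with TMM, so member counts under both scalings are given below. With the mitochondrially encoded genes removed before scaling, 63 members were called higher in the shRNA comparison of batch LC and 51 in batch LA, beside 64 and 56 with them.

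**Figure D1:**
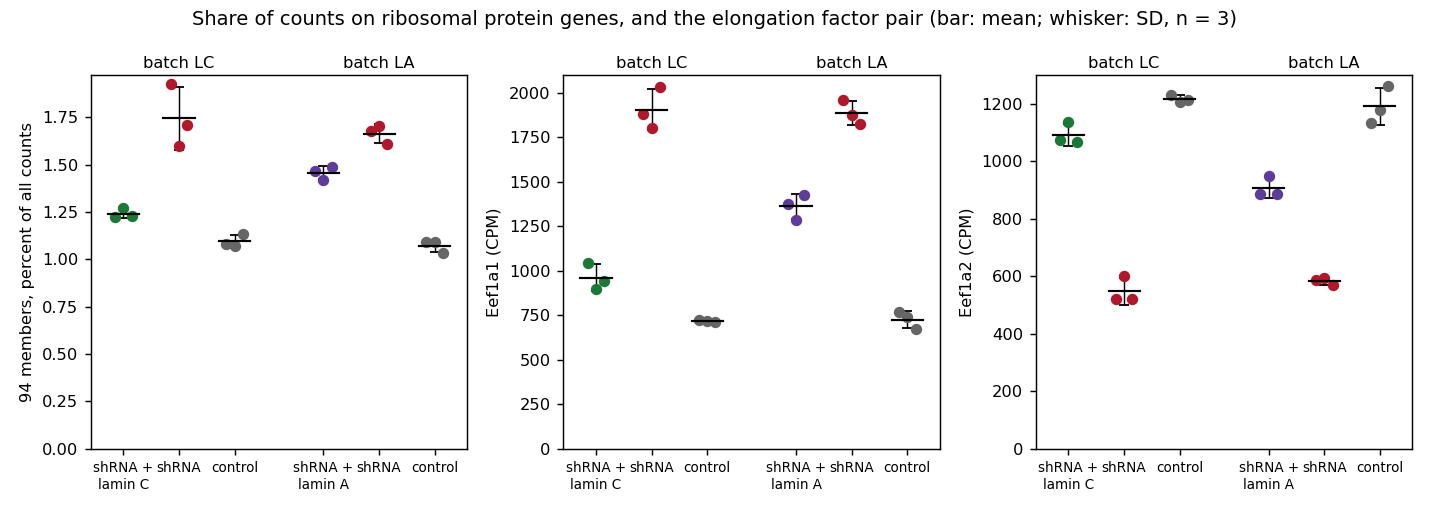
The left panel plots the 94 members' share of all counts (percent), the other panels plot Eef1a1 and Eef1a2 (CPM), for each of the 18 libraries by group, with lamin, shRNA-labelled and control hearts from left to right in each batch; bars are means and whiskers SD (n = 3). The members' share and Eef1a1 are highest in shRNA-labelled hearts of both batches, where Eef1a2 is lowest.

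The largest change among the members was a fall of Rpl3l in shRNA-labelled hearts, where Rpl3 rose. Whether both changes took place in the same cells cannot be told from bulk tissue. Rpl3l (chr17:24727820-24736143, mm10, plus strand) has a coding sequence of 1221 bases that is 74.8% identical to that of Rpl3 over 1202 aligned bases, and no other annotated gene came within 95% identity over 80% of its coding sequence. Rpl3l stood at 32.5, 41.3 and 20.9 CPM in shRNA-labelled hearts of batch LC, against 271, 234 and 223 CPM in their controls. All 3 shRNA-labelled hearts lay far below every control, and the log2 fold change was -2.94 ± 0.18 (SE, edgeR adjusted p = 5.3e-11). Batch LA gave 29.5, 39.6 and 29.7 CPM in shRNA-labelled hearts, against 223, 224 and 241 CPM in controls. The log2 fold change there was -2.80 ± 0.18 (edgeR adjusted p = 1.1e-10).

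Rpl3, the form used in most tissues, moved the opposite way in both batches. It reached 324, 283 and 306 CPM in shRNA-labelled hearts of batch LC, against 131, 135 and 147 CPM in controls. The log2 fold change was 1.15 ± 0.07 (edgeR adjusted p = 7.3e-11). In batch LA Rpl3 reached 307, 277 and 288 CPM in shRNA-labelled hearts, against 152, 144 and 130 CPM in controls. The log2 fold change was 1.03 ± 0.07 (edgeR adjusted p = 3.5e-10), and in neither batch did the groups overlap.

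Rpl3l lay between its shRNA-labelled and control levels with either lamin. Rpl3l stood at 166, 214 and 173 CPM with lamin C and at 81.6, 106 and 82.7 CPM with lamin A. The log2 fold change was 2.55 ± 0.18 for lamin C against shRNA-labelled hearts (edgeR adjusted p = 8.7e-10) and 1.45 ± 0.18 for lamin A against shRNA-labelled hearts (edgeR adjusted p = 5.5e-06). Against control hearts it was -0.40 ± 0.17 with lamin C, which did not pass the test (edgeR adjusted p = 0.13), although the 3 lamin C values lay below the 3 control values. With lamin A it was -1.35 ± 0.17 (edgeR adjusted p = 2.8e-06).

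Rpl3 stood at 201, 175 and 174 CPM with lamin C and at 260, 255 and 269 CPM with lamin A. It fell with lamin C relative to shRNA-labelled hearts (log2 fold change -0.73 ± 0.07, edgeR adjusted p = 7e-08). With lamin A the difference of -0.15 ± 0.07 did not pass the test (edgeR adjusted p = 0.12), while scaling by library totals gave -0.36 and a call. Against control hearts Rpl3 stayed higher with lamin C (0.42 ± 0.07, edgeR adjusted p = 0.00073) and with lamin A (0.88 ± 0.07, edgeR adjusted p = 1.2e-08).

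The share of Rpl3l in the pair moved the same way on every length scale, but its size depends on the length used. The deposited FPKM values divide by a gene length of 3175 bases for Rpl3 and 1643 bases for Rpl3l, whose coding sequences have 1209 and 1221 bases. Of the summed FPKM of both genes, Rpl3l made up 65.8% ± 4.37 with lamin C, 16.6% ± 5.20 in shRNA-labelled hearts and 77.2% ± 2.68 in control hearts of batch LC (SD, n = 3 each). In batch LA it made up 39.9% ± 4.06 with lamin A, 17.98% ± 3.22 in shRNA-labelled hearts and 75.7% ± 2.23 in control hearts.

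Per coding base, a scale added after the data were seen, the shares of Rpl3l were lower. They were 49.8% ± 4.86 with lamin C, 9.33% ± 3.17 in shRNA-labelled hearts and 63.5% ± 3.54 in control hearts of batch LC. In batch LA they were 25.4% ± 3.25 with lamin A, 10.1% ± 2.0 in shRNA-labelled hearts and 61.6% ± 2.90 in control hearts. Rpl3l was thus the larger part in control hearts and the smaller part in lamin A and shRNA-labelled hearts on both scales, while in lamin C hearts it was the larger part by FPKM and the pair was level per coding base (45.0% to 54.7%). The groups did not overlap in any of the 6 comparisons on either scale, each with a two-sided exact permutation p of 0.1, the smallest that 3 against 3 allows.

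The sum of the pair was lower in shRNA-labelled than in control hearts by FPKM and by TMM-scaled CPM, again by an amount set by the scale. For CPM the direction rests on the TMM factors, and library totals would turn it. These factors were 0.862 to 0.876 in controls and 1.16 to 1.18 in shRNA-labelled hearts of batch LC. In batch LA they were 0.867 to 0.872 and 1.16 to 1.19. By FPKM it was 166 with lamin C, 112 in shRNA-labelled hearts and 187 in controls of batch LC, and 134 with lamin A, 109 in shRNA-labelled hearts and 181 in controls of batch LA. By CPM it was 368.0 with lamin C, 336.0 in shRNA-labelled hearts and 380.2 in controls of batch LC, and 351 with lamin A, 324 in shRNA-labelled hearts and 372 in controls of batch LA. The FPKM values carry a scaling as well. Their effective library size lay below the count total in every control and above it in every shRNA-labelled heart. It was 31229603 for 35513207 counts in the first control of batch LC. In the first shRNA-labelled heart of that batch it was 49472998 for 41259968 counts. The size of the fall by FPKM therefore depends on this scaling too. Shares of CPM and the shares per coding base differed by less than 1 SD.

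**Figure D2:**
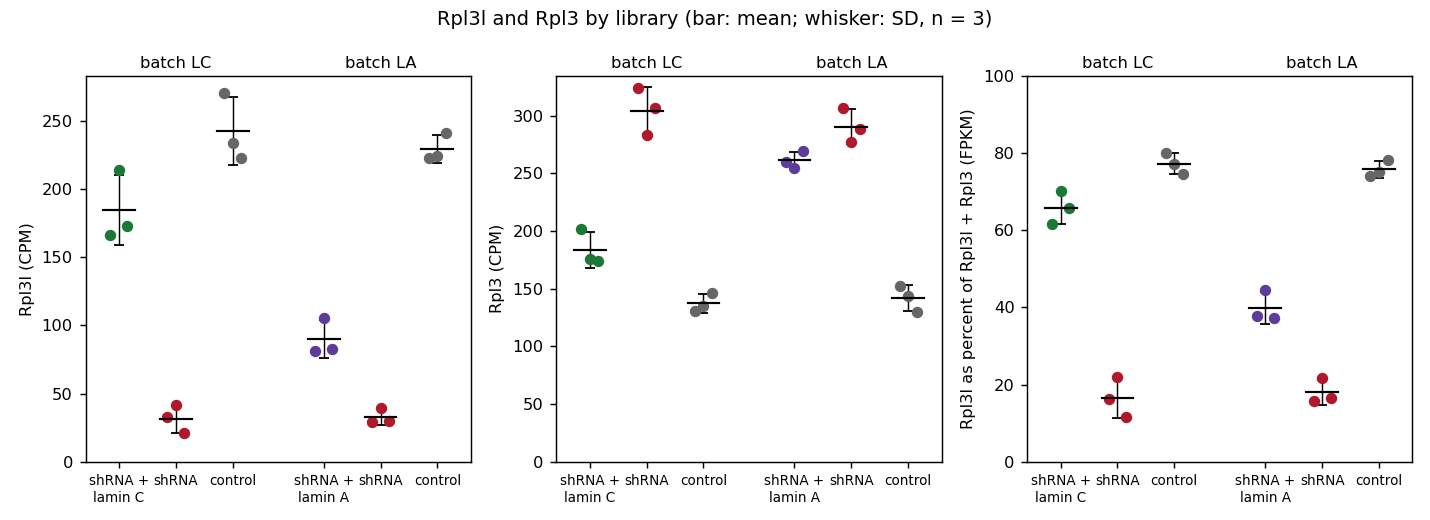
Rpl3l (CPM), Rpl3 (CPM) and Rpl3l as a percent of the summed FPKM of both genes, for each of the 18 libraries by group, with lamin, shRNA-labelled and control hearts from left to right in each batch; bars are means and whiskers SD (n = 3). Rpl3l is at 20.9 to 41.3 CPM in the 6 shRNA-labelled hearts and above 220 CPM in the 6 controls, with lamin A at 81.6 to 106 CPM and lamin C at 166 to 214 CPM.

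Apart from that pair, most core genes rose by a small amount in shRNA-labelled hearts. In batch LC 64 of the 89 members tested were called higher and 3 lower, where 33.3% of all genes tested were called higher and 29.6% lower, 62.9% in all. In batch LA 56 members were called higher and 4 lower, against 32.4% of all genes higher and 29.0% lower, 61.4% in all. The median member changed by 0.297 and 0.257 on the log2 scale, where the median of all genes was 0.0455 and 0.0462. With library totals 83 members were called higher and 1 lower in batch LC, and 84 higher and 1 lower in batch LA, with the member medians at 0.722 and 0.694. Of all genes 58.3% were then called higher and 13.5% lower in batch LC, and 59.5% and 12.7% in batch LA. The 5 members below the filter on low counts were Rpl10l, Rpl39l, Rpl13a-ps1, Rpl36-ps4 and Rpl9-ps1, of which Rpl39l reached 0.44 CPM and the other 4 were at 0 in every library.

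The rise took in both subunits. Of the 46 large-subunit core genes 33 were called higher in batch LC and 32 in batch LA, and of the 31 small-subunit core genes 25 and 20. The quartiles of the core genes' log2 fold change were 0.189 and 0.457 in batch LC and 0.149 and 0.367 in batch LA. Summed, the large-subunit core genes ranged over 7767 to 9306 CPM in shRNA-labelled hearts and 6619 to 6941 CPM in controls of batch LC. The small-subunit core genes ranged over 5857 to 6939 CPM in shRNA-labelled hearts and 5247 to 5608 CPM in controls. In batch LA the same sums ranged over 7634 to 8266 CPM in shRNA-labelled hearts and 6367 to 6778 CPM in controls for the large subunit, and over 5657 to 6141 CPM in shRNA-labelled hearts and 5133 to 5403 CPM in controls for the small subunit.

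**Figure D3:**
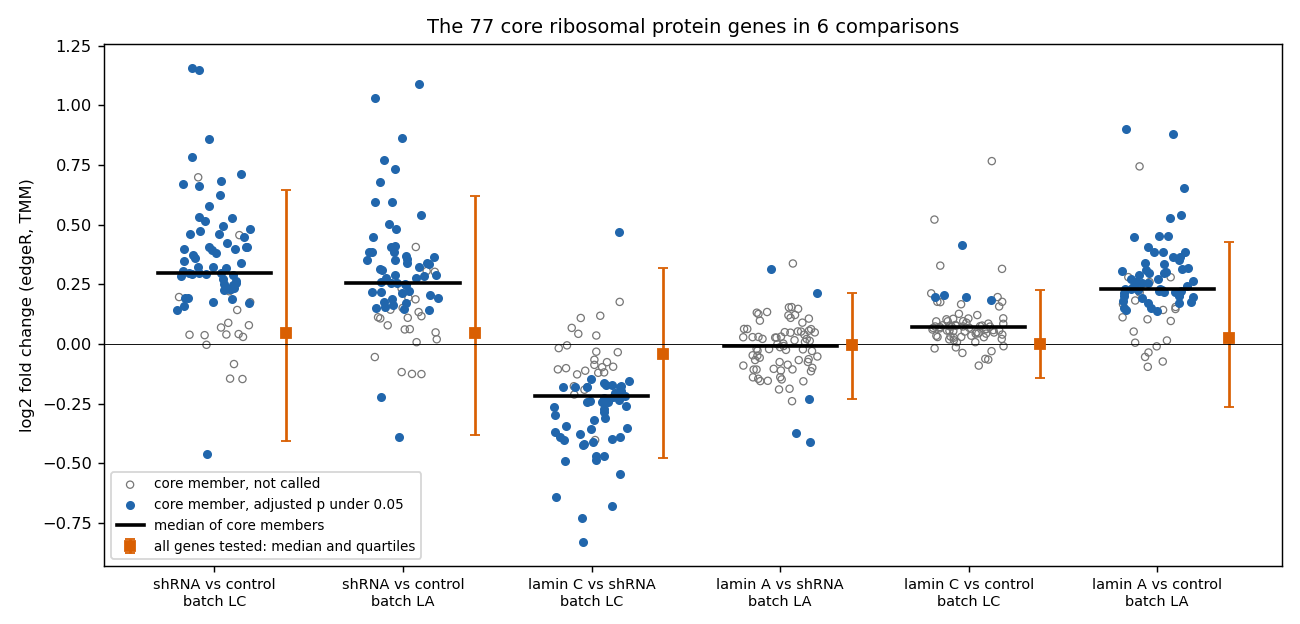
Log2 fold change (edgeR, TMM) of each of the 77 core genes in 6 comparisons; filled points passed an adjusted p of 0.05, black bars are the core medians, and orange squares with whiskers are the median and quartiles of all 17876 genes tested. The core genes lie mostly above 0 in both shRNA comparisons and with lamin A against control, mostly below 0 with lamin C against shRNA-labelled hearts, and around 0 with lamin A against shRNA-labelled hearts.

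Other core genes with large rises in both batches sit on both subunits. Rpl13a, known in human cells for a second role in silencing inflammatory messages, had 14.7, 10.7 and 11.2 CPM in shRNA-labelled hearts of batch LC, against 6.21, 7.26 and 6.76 CPM in controls (log2 fold change 0.86 ± 0.12, edgeR adjusted p = 2.9e-06). In batch LA its change was 0.86 ± 0.12 (edgeR adjusted p = 2.6e-06). These are low counts for a ribosomal protein message, and Rpl13a overlaps Gm45713 on the same strand, so how its reads were assigned is uncertain.

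Rpl39, which lines the peptide exit tunnel, had 135, 90.5 and 96.1 CPM in shRNA-labelled hearts of batch LC, against 58.5, 62.7 and 65.6 CPM in controls (0.78 ± 0.12, edgeR adjusted p = 7.5e-06). The change in batch LA was 0.73 ± 0.12 (edgeR adjusted p = 1.9e-05). The first shRNA-labelled heart of batch LC stood well above the other 2 for Rpl39, and it had the highest members' share of counts of all libraries, 1.93%. Without that library 50 members in place of 64 were called higher and 4 in place of 3 lower in batch LC.

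Rps12, a small-subunit protein known from Drosophila for its part in cell competition, had 91.5, 75.9 and 93.5 CPM in shRNA-labelled hearts of batch LC, against 51.1, 59.8 and 48.2 CPM in controls (0.71 ± 0.09, edgeR adjusted p = 5e-07). Batch LA gave 78.1, 74.9 and 80.7 CPM in shRNA-labelled hearts, against 47.8, 43.3 and 45.9 CPM in controls (0.77 ± 0.09, edgeR adjusted p = 2e-07). Every shRNA-labelled heart exceeded every control of its batch. Rps12 has 23 other annotated genes with near-identical sequence, so how reads were divided between copies can enter its values.

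Rpl12, at the base of the stalk that recruits translation factors, had 211, 175 and 188 CPM in shRNA-labelled hearts of batch LC, against 117, 120 and 120 CPM in controls (0.69 ± 0.06, edgeR adjusted p = 4.9e-09). The change in batch LA was 0.59 ± 0.06. Rpl10, which joins the large subunit late in its assembly, had 343, 306 and 353 CPM in shRNA-labelled hearts of batch LC, against 213, 204 and 214 CPM in controls (0.67 ± 0.06, edgeR adjusted p = 1.1e-08), and changed by 0.68 ± 0.06 in batch LA. The short protein Rpl41 changed by 0.66 ± 0.11 and 0.60 ± 0.11, and Rps26, which lies near the exit of the messenger RNA channel, by 0.62 ± 0.07 and 0.48 ± 0.07. All of these passed the test in both batches.

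The values of Rps27a and Rpl17 lay apart in the 2 batches, but the difference between batches, 1.01 ± 0.46 and -0.56 ± 0.24, did not pass the test (edgeR adjusted p = 0.76 for each). Rps27a, made as a fusion of ubiquitin with a small-subunit protein, had 170, 95.5 and 142 CPM in shRNA-labelled hearts of batch LC, against 55.4, 59.7 and 67.8 CPM in controls (1.16 ± 0.33, edgeR adjusted p = 0.0046). In batch LA it had 72.2, 154 and 64.4 CPM in shRNA-labelled hearts, against 107, 54.9 and 101 CPM in controls. These overlapped, and the change of 0.14 ± 0.32 did not pass the test (edgeR adjusted p = 0.72). Rpl17, near the tunnel exit, changed by 0.53 ± 0.17 in batch LC (edgeR adjusted p = 0.013), a call lost without the first shRNA-labelled heart, and by 1.09 ± 0.17 in batch LA (edgeR adjusted p = 1.9e-05). Rps27a has 8 other annotated genes with near-identical sequence and Rpl17 has 22, so how reads were divided between copies can enter their values. Of the 77 core genes 71 have at least 1 such gene, with a median of 5 and a highest value of 57 for Rpl21.

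Rps2 was the one small-subunit core gene called lower in each shRNA comparison. This protein, at the entry of the messenger RNA channel, had 468, 452 and 407 CPM in shRNA-labelled hearts of batch LC, against 596, 582 and 649 CPM in controls (-0.46 ± 0.07, edgeR adjusted p = 5.5e-06). Batch LA gave 468, 502 and 458 CPM in shRNA-labelled hearts, against 616, 635 and 620 CPM in controls (-0.39 ± 0.07, edgeR adjusted p = 4.2e-05). Both groups were apart in both batches, but the direction rests on the scaling, since library totals gave -0.04 in batch LC and 0.05 in batch LA with neither called. Relative to the median of all genes Rps2 was lower under both scalings.

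Rps2 (chr17:24718116-24721929, plus strand) lies 5890 bases upstream of Rpl3l, with Ndufb10 (chr17:24722060-24724478, minus strand), a subunit of respiratory complex I, between them. Ndufb10 was called lower as well, with log2 fold changes of -1.298 in batch LC and -1.22 in batch LA. Msrb1, the next gene beyond Rpl3l, had a log2 fold change of 0.12 in both batches and did not pass the test. The antisense transcript Snhg9 inside Rps2 held at most 0.107 CPM in any library, and Rps2 has 18 other genes of near-identical sequence.

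Rps2 was higher with either lamin than in shRNA-labelled hearts. It had 582, 666 and 588 CPM with lamin C and 563, 614 and 600 CPM with lamin A. The change against shRNA-labelled hearts was 0.47 ± 0.07 with lamin C (edgeR adjusted p = 6.4e-06) and 0.32 ± 0.07 with lamin A (edgeR adjusted p = 0.0012). With library totals these were 0.15, still called, and 0.11, no longer called. Against controls the differences of 0.01 ± 0.07 with lamin C and -0.07 ± 0.07 with lamin A did not pass the test.

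Other members showed little change or a fall. The P-stalk, the arm that recruits elongation factors, was uneven. Its base protein Rplp0 had 547 ± 24.7 CPM in shRNA-labelled hearts and 532 ± 12.8 CPM in controls of batch LC (0.04 ± 0.05, not called), Rplp1 changed by 0.40 ± 0.07 and 0.34 ± 0.07 in the 2 batches (both called), and Rplp2 had log2 fold changes of -0.08 ± 0.08 and -0.13 ± 0.08 (neither called). With library totals the value for Rplp2 was 0.34 in batch LC and 0.31 in batch LA. Rpl36 had a log2 fold change of -0.14 ± 0.08 in batch LC, not called, and of -0.22 ± 0.08 in batch LA (edgeR adjusted p = 0.017), against 0.28 and 0.21 with library totals. The call in batch LA was lost without the third shRNA-labelled heart.

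Rpl5 and Rpl11, which carry the 5S ribosomal RNA and can bind the p53 regulator Mdm2, had log2 fold changes of 0.29 ± 0.06 and 0.14 ± 0.06 in batch LC and of 0.22 ± 0.06 and 0.20 ± 0.06 in batch LA, with Rpl11 in batch LC the one that was not called. Rps6, the substrate of the ribosomal S6 kinases, changed by 0.26 ± 0.05 and 0.31 ± 0.05, and Rpsa, also known as the laminin receptor precursor, by 0.31 ± 0.06 and 0.26 ± 0.06, and these passed the test in both batches.

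In the shRNA comparisons none of the other paralogs tested was called lower, and none moved opposite to a core partner with both called. Rpl22l1 changed by 0.30 ± 0.09 in batch LC and 0.28 ± 0.09 in batch LA, both called, while its partner Rpl22 had values of 0.07 ± 0.07 and 0.01 ± 0.07, neither called. Rps27l, known as a p53 target, changed by 0.48 ± 0.09 and 0.42 ± 0.09, both called, and Rps27 had values of 0.41 ± 0.16, called but not without the first shRNA-labelled heart (0.19), and 0.19 ± 0.16, not called. Rpl7l1, a relative of Rpl7, had differences of -0.09 ± 0.06 and 0.11 ± 0.06, neither called, and Rpl7 changed by 0.37 ± 0.06 and 0.36 ± 0.06, both called. Rpl36al was called higher (1.94 ± 0.40 and 1.56 ± 0.41) at no more than 0.892 CPM in any library, and it overlaps Gm49383 on the same strand. Its partner Rpl36a changed by 0.51 ± 0.09 and 0.54 ± 0.09, both called. Rpl39l and Rpl10l were below the filter.

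Members caught by name alone were mixed. Rps27rt had 9.15, 13.7 and 17.5 CPM in shRNA-labelled hearts of batch LC, against 25.3, 23.4 and 24.6 CPM in controls (-0.87 ± 0.36, edgeR adjusted p = 0.044). In batch LA the change was -0.93 ± 0.36 (edgeR adjusted p = 0.034), with controls that spread over 7.29 to 34.4 CPM. The call was lost in 5 of 6 fits that left out 1 library in batch LC and in 4 of 6 in batch LA, and with library totals in both. Rps27, with an identical coding sequence, had positive values in both batches. How reads were divided between Rps27rt and Rps27 can therefore enter the values of both. Rps19bp1 changed by 0.47 ± 0.11 and 0.40 ± 0.11, both called. Of the pseudogene-named rows Rps12-ps3 and Rpl10-ps3 were called higher in batch LC (0.63 and 0.98) and had 0.11 and 0.63 in batch LA, where neither was called. Rpl24 and Rps10 stood at averages of 0.524 and 1.94 CPM over all libraries and share their strand with the overlapping genes Gm28037 and RPS10-NUDT3, so how their reads were assigned is uncertain.

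**Figure D4:**
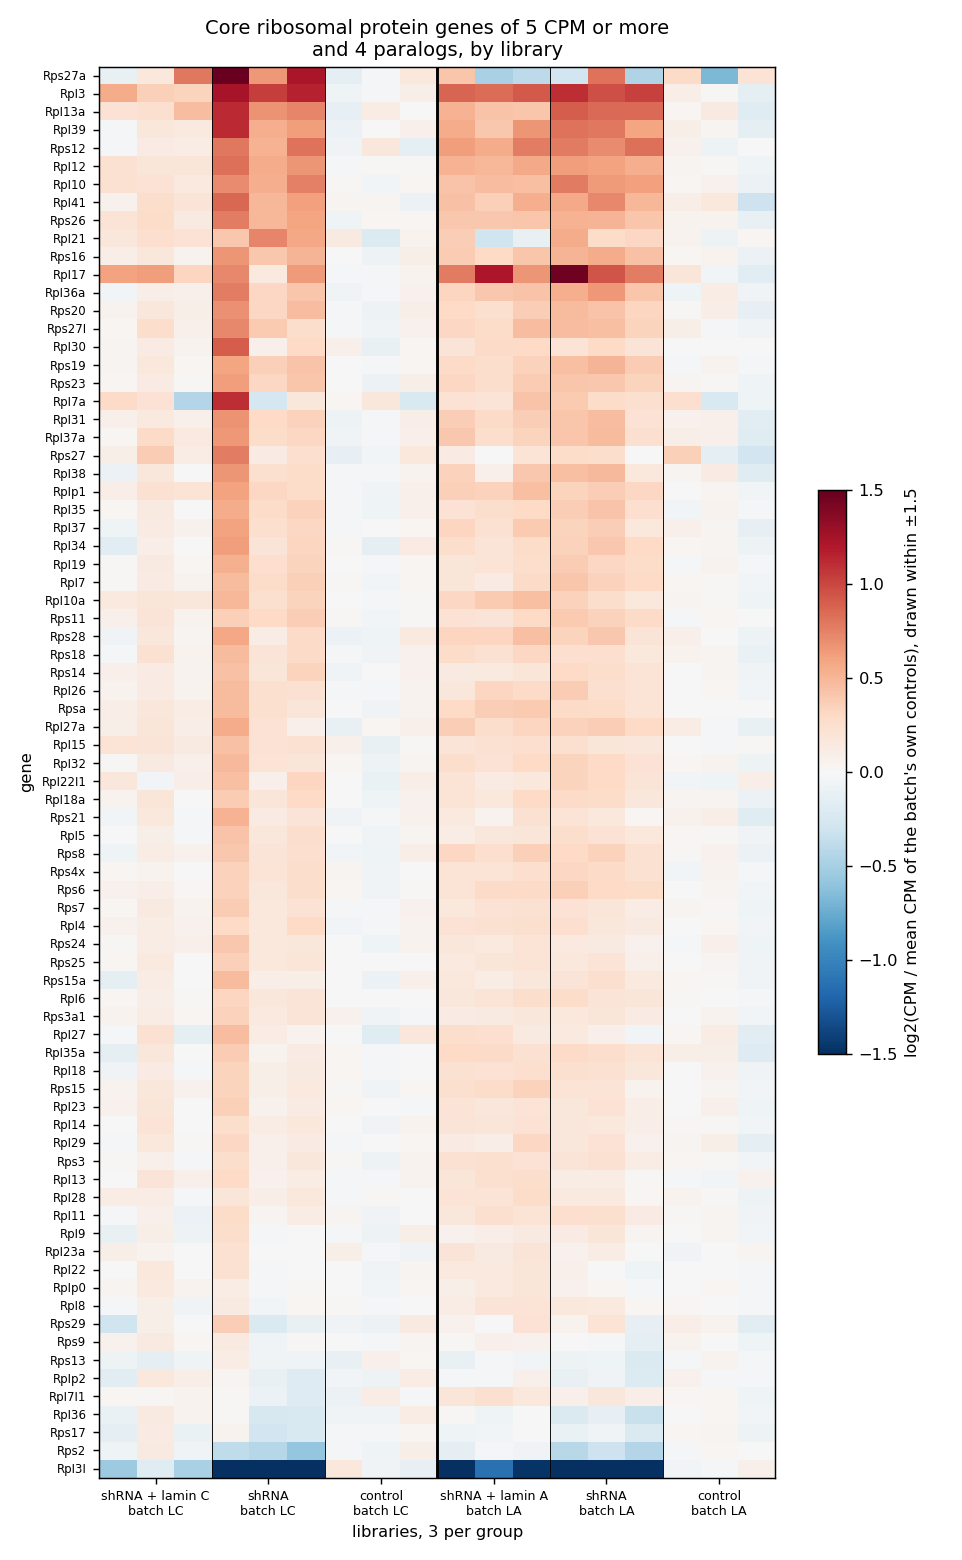
Rows are core genes of at least 5 CPM and 4 paralogs, columns are libraries (3 per group), and the colour is the log2 ratio of CPM to the mean of the batch's own controls, drawn within ±1.5. Red fills the shRNA-labelled columns of both batches and the lamin A columns, paler in lamin C, while Rps2 and Rpl3l at the bottom are blue in shRNA-labelled hearts.

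Rack1 and Fau, outside the rule, were called in the same direction as most members. Rack1, a signalling scaffold on the small subunit, had 297, 255 and 263 CPM in shRNA-labelled hearts of batch LC, against 226, 208 and 218 CPM in controls. Its change was 0.32 ± 0.06 and 0.28 ± 0.06 in the 2 batches and that of Fau, which encodes a small-subunit protein fused to a ubiquitin-like one, 0.48 ± 0.06 and 0.47 ± 0.06, and both were called higher in both batches.

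The shRNA comparisons of the 2 batches share no library and gave like values. The third controls of the 2 batches carry consecutive numbers, apart from the other libraries of their own batch. Whether these controls were collected together is not stated. Of the members called higher, 54 were called in both batches, 84.4% of the batch LC list and 96.4% of the batch LA list, and Rpl3l, Rps2 and Rps27rt were called lower in both. Across the 89 members the log2 fold changes of the batches had a Pearson r of 0.924, and of 0.844 without Rpl3l, as a description over genes that are not independent. Over all genes tested r was 0.91. In the test of the difference between the batches edgeR called 0 members at an adjusted p under 0.05 (0.00559% of all genes were called higher), and DESeq2 also called 0. In edgeR 4 members had an unadjusted p under 0.05, 2 in each direction, which is 4.49% against 6.39% of all genes.

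**Figure D5:**
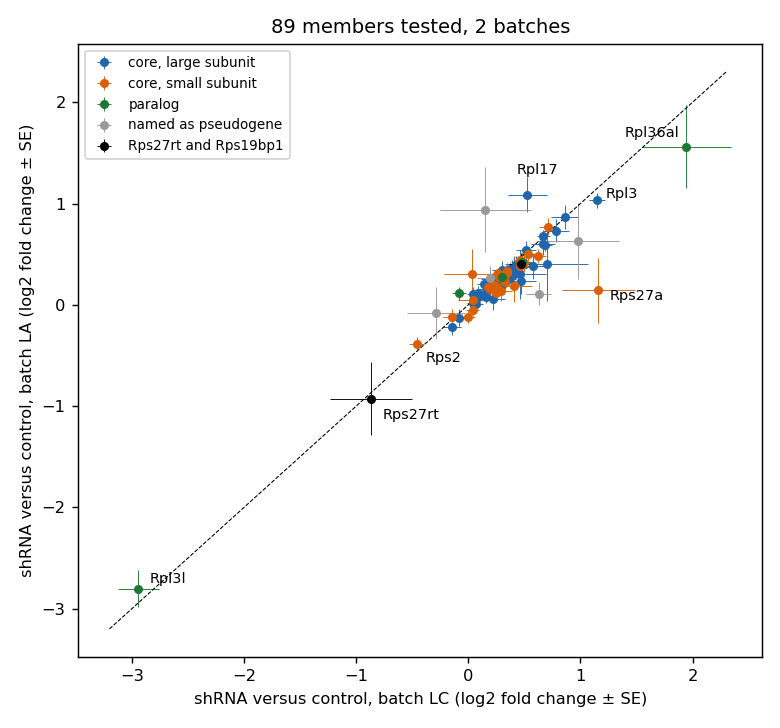
Log2 fold change (± SE) of shRNA-labelled against control hearts in batch LC (horizontal) and batch LA (vertical) for the 89 members tested, coloured by class, with the line of equal change. Most members lie between 0 and 0.9 close to the line, Rpl3l lies at -2.94 and -2.80, and Rps27a and Rpl17 stand off the line.

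Most members were lower with lamin C than in shRNA-labelled hearts. In batch LC 55 members were called lower and 2, Rpl3l and Rps2, higher, against 28.4% of all genes lower and 25.7% higher, and the member median was -0.217 where that of all genes was -0.0425. With library totals 80 were called lower and 2 higher, against 51.5% and 13.1% of all genes. Of the core genes 27 in the large and 23 in the small subunit were called lower. Rpl39 had 61.6, 70.1 and 69.1 CPM with lamin C, against 135, 90.5 and 96.1 CPM in shRNA-labelled hearts (-0.68 ± 0.12, edgeR adjusted p = 5.4e-05). Rps12 had 52.5, 57.8 and 57.2 CPM with lamin C, against 91.5, 75.9 and 93.5 CPM in shRNA-labelled hearts (-0.64 ± 0.08, edgeR adjusted p = 2.9e-06). Rpl13a changed by -0.54 ± 0.11, Rpl12 by -0.49 ± 0.06, Rpl41 by -0.49 ± 0.11 and Rpl10 by -0.47 ± 0.06, all called, whereas the value for Rpl17 was -0.01 ± 0.17 and did not pass the test. The size of this result rests partly on 1 library, since without the first shRNA-labelled heart 33 members were called lower and 5 higher, and without the first lamin C heart 40 lower and 4 higher.

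Few members were called between lamin C and control hearts. In batch LC 5 members were called higher, among them Rpl3, Rps26 (0.21), Rpl10 (0.20) and Rpl12 (0.20), against 8.87% of all genes higher. None was called lower by edgeR, against 6.18% of all genes, nor by DESeq2. In that direction 2 of the 89 members had an unadjusted p under 0.05 in edgeR, against 2312 of all 17876 genes. Without the filter on low counts edgeR called 9 higher and 2 lower, and with these groups fitted alone 5 higher and 2 lower. The member median was 0.0737 and that of all genes 0.00165. With library totals 32 were called higher, against 16.1% of all genes. The member median was then 0.185, where that of all genes was 0.113. Leaving out 1 library at a time left between 1 call, without the second control, and 4, without the third lamin C heart.

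Few members were called between lamin A and shRNA-labelled hearts. In batch LA 3 members were called higher, namely Rpl3l, Rps2 and Rpl36 (0.21), and 4 lower, namely Rpl36al, Rpl13a (-0.41), Rpl21 (-0.37) and Rpl10 (-0.23). Of all genes 16.1% were called higher and 13.7% lower, 29.8% in all. With library totals 1 member was called higher and 48 lower, against 7.16% and 34.7% of all genes. Scaling thus decides the split here, although all genes moved alike (member median -0.203, all genes -0.205, against -0.000543 and -0.00293 with TMM). Rpl36 was close to the threshold (edgeR adjusted p = 0.041). Leaving out 1 library at a time gave 2 to 3 members higher and 1 to 3 lower. The lower calls numbered 1 without the first shRNA-labelled heart and 2 without the second lamin A heart. With replicate number as a block 2 members were called higher and 3 lower. Rps12 had 70.7, 67.2 and 78.0 CPM with lamin A, against 78.1, 74.9 and 80.7 CPM in shRNA-labelled hearts, and its change of -0.11 ± 0.08 did not pass the test (edgeR adjusted p = 0.34).

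Against control hearts most members were higher with lamin A. In batch LA 60 members were called higher and 1, Rpl3l, lower, against 24.1% of all genes higher and 22.1% lower. The member median was 0.239 and that of all genes 0.0237. With library totals 79 were called higher and 1 lower, against 42.9% and 9.85% of all genes. Of the core genes 35 in the large and 21 in the small subunit were called higher. Rps12 had 70.7, 67.2 and 78.0 CPM with lamin A, against 47.8, 43.3 and 45.9 CPM in controls (0.66 ± 0.09, edgeR adjusted p = 3.7e-06). Rpl12 had 163, 160 and 168 CPM with lamin A, against 117, 115 and 109 CPM in controls (0.53 ± 0.06, edgeR adjusted p = 5.2e-07). Rpl17 changed by 0.90 ± 0.17, Rpl39 by 0.54 ± 0.12, and Rpl13a, Rpl41 and Rpl10 by 0.45, all called, while the value for Rps27a was -0.10 ± 0.32 and was not called.

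The lamin effects, each against its own control, were compared in 1 test, and each lamin was given in 1 batch only. Lmna also stood higher with lamin C than with lamin A, as given above. The lamin form therefore cannot be told apart from batch or from Lmna level. The lamin C effect minus the lamin A effect was 0.96 ± 0.24 for Rpl3l (edgeR adjusted p = 0.011) and -0.58 ± 0.12 for Rps12 (edgeR adjusted p = 0.0033). It was -0.46 ± 0.10 for Rpl3 (edgeR adjusted p = 0.0051) and -0.33 ± 0.08 for Rpl12 (edgeR adjusted p = 0.011). Without the third control of each batch Rpl3l (0.86) and Rpl12 (-0.29) were no longer called. These were the 1 member called higher and the 3 called lower, against 7.29% and 7.35% of all genes. At an unadjusted p under 0.05 there were 1 higher and 26 lower, against 2461 higher and 2523 lower of all 17876 genes. In both directions together these were 30.3% of members and 27.9% of all genes. DESeq2 called 1 member higher and 6 lower, and the member median in edgeR was -0.178 where that of all genes was -0.006. With library totals 44 members were called lower and 1 higher, at a median of -0.302 where that of all genes was -0.129.

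Among 45 ribosome biogenesis genes 20 were called higher and 11 lower in shRNA-labelled hearts of batch LC, and 18 higher and 7 lower in batch LA, with medians of 0.132 and 0.0975. Of all genes 33.3% were called higher and 29.6% lower in batch LC and 32.4% higher and 29.0% lower in batch LA. Rrp12, an export factor of ribosome precursors, had 39.0, 42.7 and 42.6 CPM in shRNA-labelled hearts of batch LC, against 20.7, 25.1 and 28.3 CPM in controls, and Eif6, which keeps the large subunit free until it is mature, changed by 0.66 and 0.72 in the 2 batches, both called. Polr1a, the catalytic subunit of RNA polymerase I, fell by 0.81 on the log2 scale in batch LC, and Dkc1, the pseudouridine synthase of ribosomal RNA, by 0.69. In lamin A hearts 26 of the 45 were called higher and 2 lower than their controls (24.1% and 22.1% of all genes), and 17 higher and 3 lower than shRNA-labelled hearts (16.1% and 13.7% of all genes). Lamin C hearts had 2 called lower, Dkc1 and Polr1a, and none higher than controls by edgeR (6.18% and 8.87% of all genes), and 10 higher and 18 lower than shRNA-labelled hearts (25.7% and 28.4% of all genes). In the test between the lamin effects 16 were called lower with lamin C (7.35% of all genes), with Rrp12 at -0.92 and Nhp2, a box H/ACA protein, at -0.74.

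Translation factors were called in both directions, where all genes were called higher in 33.3% and lower in 29.6% of cases in batch LC, and in 32.4% and 29.0% in batch LA. Of 38 genes 12 were called higher and 13 lower in shRNA-labelled hearts of batch LC, and 11 higher and 15 lower in batch LA. The elongation factors Eef1a2, the form of adult muscle and neurons, and Eef1a1, the form of most other cells, moved in opposite directions. Eef1a2 had 522, 602 and 520 CPM in shRNA-labelled hearts of batch LC, against 1231, 1204 and 1213 CPM in controls (-1.15 ± 0.06, edgeR adjusted p = 5.7e-12). Eef1a1 had 1883, 1805 and 2031 CPM in shRNA-labelled hearts, against 723, 721 and 712 CPM in controls (1.41 ± 0.07, edgeR adjusted p = 1.7e-12). Batch LA gave -1.03 ± 0.06 and 1.38 ± 0.07, both called. Against controls, Eef1a2 had log2 fold changes of -0.15 ± 0.06 with lamin C, not called, and of -0.39 ± 0.06 with lamin A, called, and Eef1a1 changed by 0.42 ± 0.07 and 0.91 ± 0.07, both called. Pabpc1, the poly(A) binding protein, was called higher in both shRNA comparisons, and Eif1, which helps choose the start codon, was called lower (-0.75 and -0.78).

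Of 16 genes that regulate TOP messages or feed into mTORC1, 12 were called lower in each batch, with 3 higher in batch LC and 2 in batch LA, where 29.6% and 29.0% of all genes were called lower and 33.3% and 32.4% higher. The genes called lower include both activators and inhibitors of the pathway. Tsc2, an inhibitor of mTORC1, had 72.2, 83.7 and 78.8 CPM in shRNA-labelled hearts of batch LC, against 131, 127 and 128 CPM in controls. The kinase gene Mtor changed by -0.35 and -0.29 in the 2 batches, its partner Rptor by -0.53 and -0.44, the upstream kinase gene Akt1 by -0.60 and -0.46, the S6 kinase gene Rps6kb1 by -0.24 and -0.26, and Larp1 by -0.31 and -0.20, all called. Of the translation repressors, Eif4ebp1 changed by 0.67 and 0.72 and was called higher, and Eif4ebp2 changed by -0.66 and -0.51 in the 2 batches, and Ybx1, a protein that packages messenger RNA, by -0.60 and -0.53. Myc, an activator of ribosomal protein genes, had 13.9, 9.52 and 15.9 CPM in shRNA-labelled hearts of batch LC, against 2.16, 3.33 and 4.94 CPM in controls (log2 fold change 1.92). It stayed higher than control with lamin C (1.33) and with lamin A (1.28).

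Markers of cell types moved with the same groups. All 10 cardiomyocyte markers were called lower in shRNA-labelled hearts of both batches, their sum ranging over 36528 to 41596 CPM in shRNA-labelled hearts and 85109 to 89054 CPM in controls of batch LC. All 10 fibroblast and all 10 macrophage markers were called higher in both, with fibroblast sums of 9442 to 13863 CPM in shRNA-labelled hearts and 1377 to 1795 CPM in controls, and macrophage sums of 1618 to 1800 CPM in shRNA-labelled hearts and 410 to 518 CPM in controls of batch LC. With lamin C the cardiomyocyte sum was 71400 to 73944 CPM, the fibroblast sum 2610 to 3920 CPM and the macrophage sum 726 to 866 CPM. With lamin A they were 53902 to 56623, 8588 to 11379 and 1396 to 1502 CPM, against 82560 to 85344, 1677 to 1849 and 459 to 493 CPM in controls of batch LA. Against controls, fibroblast markers were called higher for 8 of 10 with lamin C and 10 of 10 with lamin A, macrophage markers for 10 of 10 with each, and cardiomyocyte markers were called lower for 5 and 9 of 10. Of the 10 endothelial markers 9 were called lower and 1 higher in each shRNA comparison. Of the 7 skeletal muscle markers tested 5 were called higher in each shRNA comparison, with 0 lower in batch LC and 1 in batch LA. Of the 10 lymphocyte markers 7 were called higher in batch LC and 6 in batch LA, with 0 and 1 lower. These 2 lists hold low counts, since 4 of 8 skeletal muscle and 1 of 10 lymphocyte markers averaged at least 1 CPM in controls. The lymphocyte sum was 9.73 to 11.2 CPM in shRNA-labelled hearts and 3.07 to 5.48 CPM in controls of batch LC. The part of these cells in the members' changes was not tested. In bulk tissue fewer cells of a type and less RNA per cell cannot be told apart.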

How the data were processed

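Poly(A) RNA of 18 heart apex libraries was prepared with a directional kit, per the labels' protocols. The authors deposited raw counts and FPKM values per gene. The submitters' processing notes name HISAT2 2.0.5, featureCounts 1.5.0-p3, StringTie 1.3.3b, DESeq2 1.20.0 and the build mm10, with no roles. Whether counting used the strand was not stated. The deposited FPKM values served for levels per length and for limma alternatives on log2(FPKM + 1) and log2(FPKM + 0.1), and the deposited counts for the main tests.

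Members, gene lists and the rule for named genes were chosen with earlier results of these data known. The rule names core and paralog pairs, the P-stalk, 5S, Rps6, Rpsa and Rps27a genes, members caught by name only, core genes outside the rule, up to 6 called members of at least 5 CPM with the largest rise and the largest fall in each comparison, and up to 4 called genes with the smallest p of each of the 3 pathway lists. Some genes that it names are not reported here. Counts were filtered with filterByExpr and scaled by TMM. One fit of the 6 groups (12 residual degrees of freedom, biological coefficient of variation 9.13%) was tested with edgeR 4.0.16 in R 4.3.3, with Benjamini-Hochberg adjustment over 17876 genes, after a check on simulated data. DESeq2 1.42.0, limma 3.58.1, other scalings, no filter, a replicate block and leaving out libraries were alternatives. Replicates differed by more than counting noise, with a chi-square per degree of freedom between 6.38 and 43.4. In batch LC it was 6.38 between controls 1 and 2, and 20.7 and 17.2 between each of these and control 3. In batch LA the same values were 7.58, 10.4 and 9.33.

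Coordinates equal GENCODE M21 for 90 of 94 members. Near-identical genes (at least 95% identity over 80% of the coding sequence) were found with BLAST 2.17.0 in Python 3.11.15.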

Additional observations from a re-analysis of the deposited data

Results flagged for a closer look

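The lamin effects against their own controls differed by the test of the difference itself for 4 of the 89 members tested, with lamin C given first. Of all genes 14.6% were called in this test. Each lamin was given in 1 batch only, and Lmna stood higher with lamin C, so the lamin form cannot be told apart from batch or Lmna level. Rpl3l differed by 0.96 on the log2 scale (0.9551), Rpl3 by -0.46 (-0.4621), Rps12 by -0.58 (-0.5822) and Rpl12 by -0.33 (-0.3317). For Rpl3l the mean level was 184 CPM with lamin C and 243 CPM in its controls, and 90.0 CPM with lamin A and 230 CPM in its controls. For Rps12 it was 55.8 CPM with lamin C and 53.1 CPM in its controls, and 71.9 CPM with lamin A and 45.7 CPM in its controls. Rps12 has 23 other genes with near-identical sequence, Rpl3 has 7, Rpl12 has 6 and Rpl3l has 0. How reads were divided between copies can therefore enter the values of Rps12, Rpl3 and Rpl12. The shRNA effect in batch LC minus that in batch LA, which uses the same controls, was -0.14 ± 0.24 (SE) for Rpl3l, 0.11 ± 0.10 for Rpl3, -0.06 ± 0.12 for Rps12 and 0.09 ± 0.08 for Rpl12, and none of these passed the test. Without the third control of each batch the values for Rpl3l (0.86) and Rpl12 (-0.29) no longer passed the test.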

How the results depend on the processing

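Under the alternatives run, 5149 of 5442 gene results kept their side of the threshold, 164 lost the call and 117 gained it. Another 12 were counted as turned, all 12 with library totals. For shRNA against control these were Rpl36 (0.28), Rpl7l1 (0.34) and Rplp2 (0.34) in batch LC. In batch LA they were Rpl36 (0.21), Rplp2 (0.31) and Rps2 (0.0492). For lamin C against shRNA they were Rpl7l1 (-0.20), Rplp0 (-0.27) and Rplp2 (-0.20), and for lamin A against shRNA Rpl11 (-0.20). For lamin A against control they were Rpl36 (0.23) and Rps2 (0.16). Direction was not kept by all other members. For lamin A against shRNA 44 of the 89 members tested were above 0 with TMM and 6 with library totals. Library totals also moved counts of members, to 1 lower in each shRNA comparison, to 1 higher and 48 lower for lamin A against shRNA, to 32 higher for lamin C against control and to 44 lower for the difference between lamins. With the compared groups fitted alone, lamin C against shRNA had 34 members lower, lamin C against control 2 lower and the difference between lamins 7 lower. Without the filter on low counts, lamin C against control had 9 higher and 2 lower, lamin A against control 2 lower, the difference between batches 1 in each direction and that between lamins 2 higher and 8 lower. For the difference between lamins limma gave 5 lower with either pseudocount and 0 higher without the filter, and DESeq2 gave 6 lower; for lamin C against control limma without the filter gave 2 higher. The third controls of the 2 batches are numbered consecutively and apart from their own batches. Without them the difference between batches had 1 higher and that between lamins 0 higher. The cause of these shifts was not tested.

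Leaving out 1 library at a time gave 50 to 68 members higher and 2 to 4 lower for shRNA against control in batch LC, 47 to 59 and 3 to 4 in batch LA, 2 to 5 higher and 33 to 57 lower for lamin C against shRNA, 2 to 3 and 1 to 3 for lamin A against shRNA, 1 to 4 and 0 to 0 for lamin C against control, 44 to 58 and 1 to 2 for lamin A against control, 0 to 1 and 0 to 0 for the difference between batches, and 1 to 1 and 3 to 4 for that between lamins. Replicate numbers did not pair the samples, with correlations of same-numbered deviations between -0.0459 and 0.0617, and with the replicate block the counts were 63 and 3, 54 and 4, 2 and 55, 2 and 3, 5 and 0, 55 and 1, 0 and 0, and 1 and 3 in the same order. Depth limits Rpl24, Rps10, Rpl36al and the pseudogene-named members near or below 1 CPM.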
